A study of Mus musculus with 2 samples.

Results

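The genes described here are 49 interferon-stimulated genes of the mouse, taken as a list of gene symbols of known targets and factors of interferon signalling. Every probe carrying one of these symbols was read, and all 49 genes had at least 1 of 72 probes on the array, out of 24105 genes with a symbol and 55681 probes in all. A probe that the scanner software marked as well above background on at least 1 array is called measured. By this limit 46 of the 49 genes were measured, through 63 probes, out of 14779 measured genes and 28583 measured probes, and 44 of the 46 were well above background on both arrays.

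The cells were 4T1, a mammary carcinoma line from the BALB/C mouse strain, cultured without any treatment and sorted with ALDEFLUOR, which makes cells fluoresce by the activity of their aldehyde dehydrogenases (ALDH). The total RNA of 1 ALDH-positive and 1 ALDH-negative population was each labelled with Cy3 and hybridized to 1 single-colour Agilent mouse array with probes of 60 bases. The sample labels name these populations cancer stem cell and anti cancer stem cell, and were read as ALDH-positive and ALDH-negative from the sort that the study describes. Since each population had 1 array, there was no replicate check, no test and no p-value, and precision is limited by the number of arrays. A single cell line was sorted, and no interferon-treated, mutant or timed samples stand beside it.

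Interferons are secreted proteins that cells release when they sense viral or misplaced nucleic acids. Type I and type III interferons act through receptors, the kinases JAK1 and TYK2, and a complex that holds STAT2 and IRF9 and binds the interferon-stimulated response element (ISRE) in the promoters of its target genes. Type II interferon acts mainly through another promoter element, the gamma-activated site (GAS). The products of the target genes sense viral RNA, degrade it, block translation or membrane fusion, conjugate the ubiquitin-like protein ISG15, and guard vacuoles inside the cell. Many of these genes are also transcribed at a low level in cultured cells with no virus present.

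All signals below are background-subtracted intensities after quantile normalization over both arrays, in intensity units. Each log2 ratio sets ALDH-positive over ALDH-negative cells, so that a value above 0 means more signal in ALDH-positive cells. Where a pair of signals is given, the ALDH-negative one comes first. The error given after a log2 ratio joins those that the scanner software gave for each signal. It rests on a fixed relative error of 10% per spot, stays near 0.20 for any bright probe, and leaves out any spread between cultures. Spots of the same probe repeated within an array had a median SD of 0.059 and 0.049 (log2). A gene with more than 1 measured probe is represented by its brightest. A gene is called higher where its Z-score was 2.0 or more and its ratio 1.5 or more, and lower where its Z-score was -2.0 or less and its ratio 0.75 or less. The Z-score compares a log2 ratio with those of the 250 next dimmer and 250 next brighter probes, as the distance from their mean in SDs.

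The ISRE was present in many of these genes' promoters, and 8 stretches that hold it are shown because it is the element through which these genes are known to respond to interferon. They come from RefSeq on GRCm38.p6, where 38 of the 49 genes had an entry of 250 bases before to 50 bases after a start site. The search was for the core of the ISRE, which is GAAA, any 2 bases, then GAAA, on either strand, with overlapping matches counted. Capitals mark the core, which reads TTTC, any 2 bases, TTTC where it lies on the other strand. The stretches were chosen after the values were seen, to cover a spread of gene families.
Isg15: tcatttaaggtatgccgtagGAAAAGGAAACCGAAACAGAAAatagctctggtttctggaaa
Oas1a: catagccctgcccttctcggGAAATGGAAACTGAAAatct
Irgm1: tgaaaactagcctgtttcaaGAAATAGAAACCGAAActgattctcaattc
Igtp: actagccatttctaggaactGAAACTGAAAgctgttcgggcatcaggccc
Gbp2: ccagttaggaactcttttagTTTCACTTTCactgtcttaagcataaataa
Stat2: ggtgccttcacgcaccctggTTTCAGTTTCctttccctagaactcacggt
Ifit1: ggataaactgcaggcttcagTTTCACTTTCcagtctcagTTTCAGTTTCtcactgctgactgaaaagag
Ifit3: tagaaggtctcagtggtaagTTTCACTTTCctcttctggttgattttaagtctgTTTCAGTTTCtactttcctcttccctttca
The *Isg15* stretch is chr4:156200855-156200916 on the minus strand and holds 3 overlapping cores, and that of *Oas1a* is chr5:120907526-120907565 on the minus strand with 2. *Irgm1* is shown at chr11:48871421-48871470 on the minus strand with 2 cores, and *Igtp* at chr11:58199502-58199551 on the plus strand with 1. The *Gbp2* stretch is chr3:142620584-142620633, that of *Stat2* is chr10:128270256-128270305, that of *Ifit1* is chr19:34640765-34640833 and that of *Ifit3* is chr19:34583353-34583436, all on the plus strand. Every stretch ends before the start site.

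At least 1 ISRE core lay in the promoter window of 20 of the 38 genes (52.6%), against 1079 of all 27025 genes in the same table (3.99%). The GAS element, TTC, any 3 bases, GAA on either strand, lay in 11 of the 38 (28.9%), against 9.55% of all genes. A match of either motif can overlap one of the other. In the *Isg15* window the cores ran from 78 to 57 bases before the start site, and in the *Ifit1* window from 104 to 95 and from 85 to 76 bases before it. In *Ifih1*, *Ddx58*, *Ifitm3* and *Eif2ak2* the core lay after the start site. The motif was a description of these windows only, and no match says no more than that the letters are not in them.

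**Figure D1:**
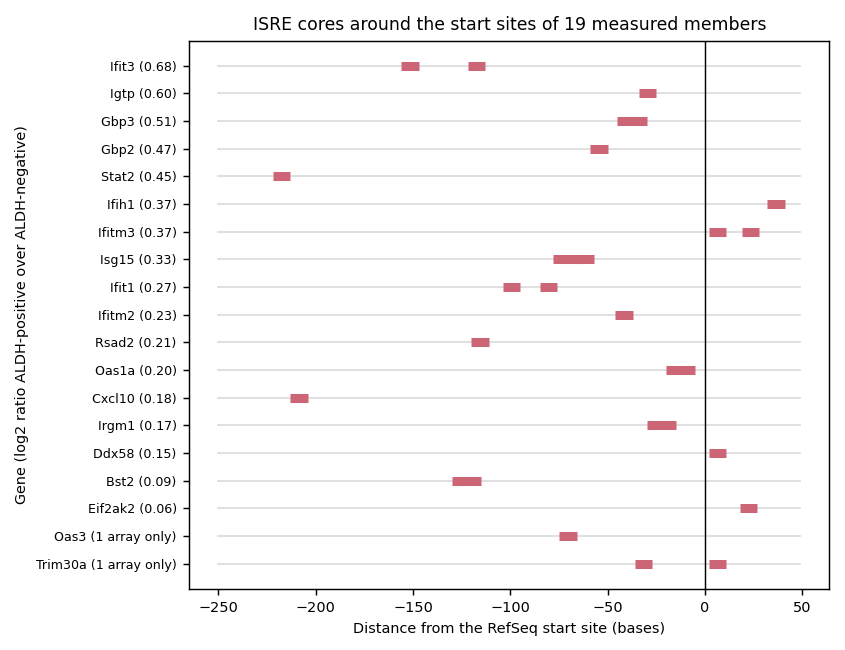
Position of each ISRE core (bars) relative to the RefSeq start site in bases (x axis) for the 19 measured genes that have one (y axis), with the log2 ratio, ALDH-positive over ALDH-negative, after each gene name. Genes are ordered by that ratio, *Oas3* and *Trim30a* stand at the bottom because they were well above background on 1 array only, and most cores lie before the start site.

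Across the 46 measured interferon-stimulated genes the signals were nearly all a little higher on the ALDH-positive array, and few passed the limits for a single gene. The median log2 ratio was 0.23 (quartiles 0.15 and 0.38), beside 0.042 (quartiles -0.093 and 0.18) over all 14779 measured genes. In all, 43 of the 46 genes lay above 0, beside 59.5% of all measured genes. A log2 ratio of 0.32 or more was reached by 17 of the 46, beside 12.8% of all measured genes, and a ratio of 0.8 or less by 0, beside 9.22%. The genes shared 2 arrays and many of their regulators, so the count is not one of independent measurements.

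Only *Igtp* was called higher and none was called lower, where 1.37% of all measured genes were called higher and 2.31% lower. *Igtp*, which encodes the immunity-related GTPase IRGM3 that guards vacuoles, gave signals of 319 (ALDH-negative) and 484 (ALDH-positive). The log2 ratio was 0.60 (error 0.20), a ratio of 1.52 that just passed the limit of 1.5, with a Z-score of 2.45. Without any background correction the log2 ratio of *Igtp* was 0.51 and with normexp correction 0.52, and it was then not called. Its probe lies on NCBI37 at chr11:58020927-58020986, plus strand, and its first 30 bases are atattcaactgtaatagcccgttccttcaa. *Ifit3* and *Usp18* had larger ratios, 1.60 and 1.54, but Z-scores of 1.83 and 1.91, since dim probes scatter more. *Trim25* and *Ifitm3* passed the Z-score with 2.31 and 2.05 but not the ratio.

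**Figure D2:**
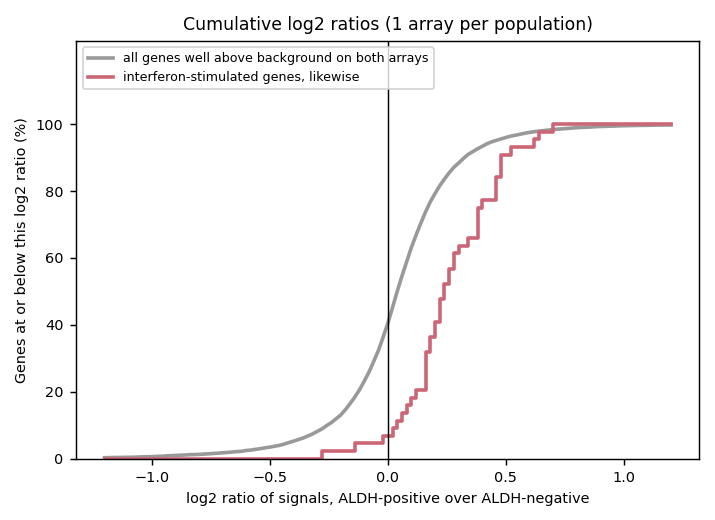
Share of genes in percent (y axis) at or below each log2 ratio of signals, ALDH-positive over ALDH-negative (x axis), for all genes well above background on both arrays (grey) and for the 44 such interferon-stimulated genes (red). The red steps lie to the right of the grey curve up to about 0.6, where both meet near 100%.

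The log2 ratios of 26 of the 46 genes lay farther from 0 than their own error, 25 of them above 0 and *Iigp1* below it. Over all measured genes 20.9% lay above 0 by more than their error and 13.2% below it. The other 20 genes lay within their error of 0. Among genes well above background on both arrays, 41 of 44 genes lay above 0 with a median of 0.23, beside 0.040 over 13843 genes. The difference was also present in each range of signal. Of genes with a signal under 100, 6 of 7 lay above 0 (median 0.44, all genes 0.062), of those from 100 to 1000, 17 of 19 (0.27, all genes 0.055), and of those at 1000 or more, 20 of 20 (0.19, all genes 0.034). These ranges were chosen after the data had been seen.

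The ALDH-positive array was the brighter one, and normalization removed most of that. Before it, all 46 genes lay above 0 with a median of 0.74, beside 0.55 and 92.5% of all measured genes. Normalization therefore sets what counts as 0, and all ratios here are relative to the rest of the array. The position on the array moved the values little. The median of the measured probes within 10 rows and columns of each spot lay between -0.088 and 0.11 for these genes, and after subtracting it, 42 of 46 lay above 0 with a median of 0.22. *Igtp* sat where that local median was -0.088, and its log2 ratio was 0.69 after the subtraction.

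**Figure D3:**
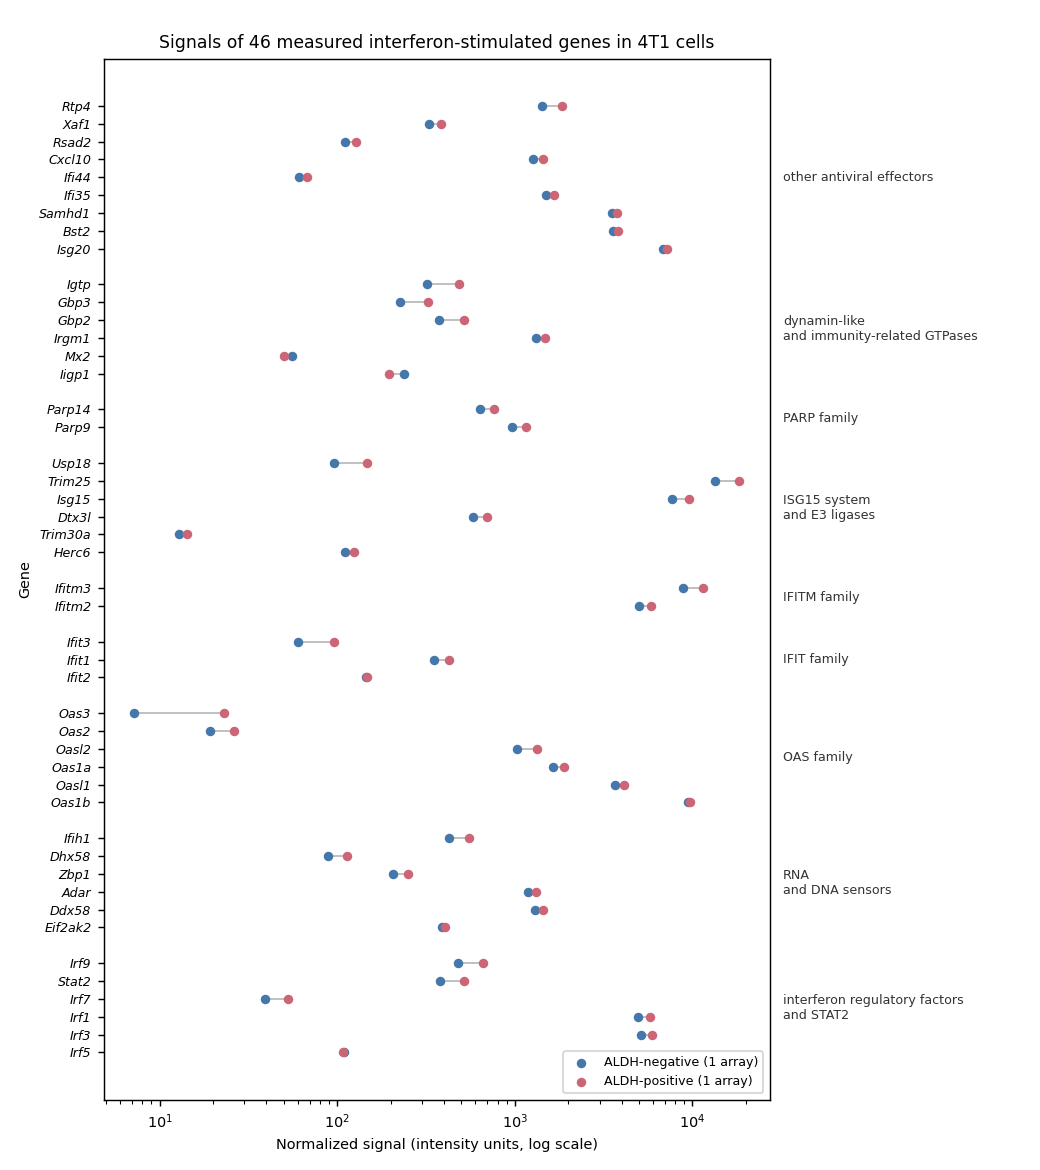
Normalized signal of each of the 46 measured interferon-stimulated genes in intensity units (x axis, log scale), on the ALDH-negative (blue) and the ALDH-positive array (red), grouped by role, with 1 array per population and no error bars. The red point lies to the right of the blue one in 43 genes, and to the left in *Irf5*, *Mx2* and *Iigp1*.

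Of the 5 interferon regulatory factors and *Stat2*, the transcription factors of the pathway, 5 of 6 genes lay above 0, with a median log2 ratio of 0.34. *Irf9*, the DNA-binding part of the complex that recognises the ISRE, had 477 and 661 (log2 ratio 0.47, error 0.20). *Stat2*, its partner, had 378 and 515 (log2 ratio 0.45, error 0.20). *Irf7*, which amplifies interferon production, was dim with 39.0 and 53.1 (log2 ratio 0.44, error 0.24). With the main background correction these 3 genes, themselves induced by interferon, each lay beyond their own error. The ratio of *Irf7* depended on that step, with 0.26 under normexp correction and 0.19 without background correction, where *Irf9* and *Stat2* stayed between 0.39 and 0.40.

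The remaining regulators were closer to 0. *Irf1*, which binds the same element and responds to type II interferon, had 4923 and 5793, a log2 ratio of 0.23. *Irf3*, the first factor activated downstream of the sensors, had 5147 and 5906 (log2 ratio 0.20). *Irf5*, best known from myeloid cells, had 109.1 and 107.2, a log2 ratio of -0.026 within its error of 0.21. *Irf5* was the only one of these 6 genes below 0.

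All 6 sensors of foreign or altered nucleic acids lay above 0, with a median log2 ratio of 0.22. *Ifih1*, encoding the long double-stranded RNA sensor MDA5, had 427 and 554 (log2 ratio 0.37, error 0.20). *Dhx58*, encoding its regulator LGP2, had 88.3 and 114, also 0.37 (error 0.21). *Zbp1*, a sensor of left-handed nucleic acids, had 206 and 251 with a log2 ratio of 0.29, and its second, dimmer probe gave 0.47. These 3 genes lay beyond their error, and *Dhx58* gave 0.21 both under normexp correction and without background correction.

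*Adar*, which edits double-stranded RNA, gave 0.15 and 0.27 from its probes. *Ddx58*, encoding the RNA sensor RIG-I, had 1297 and 1438 on its brighter probe (log2 ratio 0.15, error 0.20). Its dimmer probe had 46.9 and 68.7 (log2 ratio 0.55, error 0.23), so the probes disagreed in size and not in sign. *Eif2ak2*, encoding the kinase PKR that halts translation, had 391 and 407, a log2 ratio of 0.058 within its error of 0.20.

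The OAS family makes the second messenger that switches on RNase L, and 6 of its 7 listed genes were measured, all above 0. *Oas2* had a dim signal of 19.3 and 26.4 (log2 ratio 0.45, error 0.35), and *Oasl2* had 1032 and 1326 (log2 ratio 0.36, error 0.20). *Oas1a* had 1643 and 1889 (log2 ratio 0.20) and gave 0.25 from its other probe, and *Oasl1* had 3646 and 4122 (0.18). *Oas1b* had 9405 and 9631 (log2 ratio 0.034, error 0.20), with 0.093 and -0.025 from its other probes. *Oas1b* was thus the OAS gene nearest to 0 on every probe. The dim *Oas2* gave 0.16 under normexp correction and 0.12 without background correction.

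*Oas3* was well above background only in ALDH-positive cells, at 23.1. In ALDH-negative cells its signal was 7.21, below the lowest normalized signal of any probe well above background there, 13.1, so that ALDH-positive cells had an at least 1.76-fold higher signal. The bound is the ALDH-positive signal over that lowest signal and holds for background-subtracted signals only: under normexp correction the log2 ratio of *Oas3* was 0.27 and without background correction 0.25. *Oas1g* was not well above background on either array, with 3.32 and 2.65 on one probe and signals below 3.32 on the other. The OAS1 genes lie side by side and are close in sequence, and whether their probes also take up each other's transcripts was not tested.

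The IFIT proteins bind viral RNA that lacks host cap marks, and their 3 genes were spread out. *Ifit3* had 59.8 and 95.8 (log2 ratio 0.68, error 0.22), the largest log2 ratio of the 44 listed genes measured on both arrays. Under normexp correction it was 0.33 and without background correction 0.36, below *Igtp* with 0.52 and 0.51 and *Usp18* with 0.44 and 0.43. *Ifit1* had 351 and 424 (log2 ratio 0.27, error 0.20). *Ifit2* had 146 and 147 (log2 ratio 0.012, error 0.21). The genes lie next to each other on chromosome 19, yet *Ifit2* did not share the ratio of *Ifit3*.

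The IFITM proteins sit in membranes and block viral fusion. *Ifitm3* had 8870 and 11452 (log2 ratio 0.37, error 0.20), and *Ifitm2* had 4990 and 5871 (log2 ratio 0.23, error 0.20). Neither probe of *Ifitm1* was well above background, with 2.71 and 4.55 on one and 2.80 and 6.11 on the other, so no ratio is given.

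The ISG15 system conjugates a ubiquitin-like protein to others, and its 6 genes, E3 ligases included, all lay above 0 with a median log2 ratio of 0.29. *Isg15* itself had signals of 7624 and 9581 (log2 ratio 0.33, error 0.20), and its second probe had 492 and 612 (0.32). *Usp18*, the protease that removes ISG15 and dampens the type I receptor, had 95.7 and 148 (log2 ratio 0.63, error 0.21). *Isg15* was one of the genes whose probes gave nearly the same ratio at very different signals.

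*Herc6*, a ligase for ISG15 in the mouse, had 111 and 124 on its brighter probe (log2 ratio 0.16, error 0.21) and 79.7 and 121 on the other (0.61, error 0.21). The probes of *Trim25*, a ligase that acts on RIG-I, also differed. The brighter had 13317 and 18370 (log2 ratio 0.46, error 0.20), and the other 10574 and 10809 (log2 ratio 0.032, error 0.20). Both *Trim25* probes were bright, and their difference was larger than the SD of repeated spots. *Trim30a*, a ligase related to TRIM5, was well above background only in ALDH-positive cells (12.8 and 14.3, log2 ratio 0.16, error 0.48). Its bound was 1.09-fold, and its log2 ratio turned to -0.10 with the 75th percentile shift.

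The first 30 bases of these probes are shown because each pair reads different stretches of its gene and gave different ratios. The coordinates are those of the array files on NCBI37.
Herc6, brighter probe: gatgctggagagaataatctcattgatgtg
Herc6, dimmer probe: gacttaactttggatgaaaagaaaaaattc
Trim25, brighter probe: accatctcagtttttcacacgtgtgtgttt
Trim25, dimmer probe: gagacccatctagaccttgccctgtttgtg
The brighter *Herc6* probe lies at chr6:57568608-57568667 and the dimmer at chr6:57612406-57612719, both on the plus strand. The latter spans 314 bases of the genome with its 60 bases, so it crosses an intron. The brighter *Trim25* probe spans 6226 bases at chr11:88874956-88881181 and the dimmer 60 bases at chr11:88881521-88881580, both on the plus strand. The ratio of *Trim25* therefore depends on which probe is read, and the arrays hold no further measure of its isoforms.

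*Parp9* and *Dtx3l*, whose products form 1 ligase complex, and *Parp14* are neighbours on chromosome 16. *Parp14* had 637 and 766 (log2 ratio 0.27), *Parp9* 966 and 1156 (0.26) and *Dtx3l* 585 and 696 (0.25), each with an error of 0.20. The brightest probes of these neighbours thus gave nearly equal ratios, except after subtracting neighbouring spots, where *Dtx3l* was at 0.14, *Parp14* at 0.29 and *Parp9* at 0.30. A second, dim probe of *Parp9* had 36.0 and 29.2 (log2 ratio -0.30, error 0.28), and the dim probes of *Dtx3l* gave -0.23 and 0.23.

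The interferon-induced GTPases were spread widely. Of 6 measured genes 4 lay above 0, with a median log2 ratio of 0.32. Beside *Igtp*, the guanylate-binding proteins *Gbp3*, with 227 and 324, and *Gbp2*, with 372 and 516, had log2 ratios of 0.51 and 0.47 (errors 0.21 and 0.20). *Irgm1*, a relative of *Igtp*, had 1321 and 1483 (log2 ratio 0.17, error 0.20), and 0.26 from its other probe. *Gbp2* and *Gbp3* are close relatives, and cross-hybridization between them was not tested.

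The 2 genes farthest below 0 were of this family too. *Iigp1*, another immunity-related GTPase, had 239 and 195 (log2 ratio -0.29, error 0.21). *Mx2*, a dynamin-like antiviral GTPase, had 55.6 and 50.1, a log2 ratio of -0.15 within its error of 0.23. Of these, *Iigp1* alone lay beyond its error. *Mx1*, the best known gene of this kind, was not well above background on either array (6.30 and 2.69).

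The other 9 effectors all lay above 0 with a median log2 ratio of 0.15. *Rtp4*, a chaperone of membrane receptors, had 1420 and 1850 (log2 ratio 0.38, error 0.20). *Xaf1*, which promotes cell death, had 331 and 384 (0.22), and *Rsad2*, encoding the antiviral enzyme viperin, 111 and 128 (0.21). *Cxcl10*, a chemokine that attracts T cells, had 1274 and 1445 on its brighter probe (0.18, error 0.20). Its dimmer probe had 18.7 and 37.2 (log2 ratio 0.99, error 0.32). On the brighter probes, *Rtp4* was the farthest from 0 in this group.

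*Ifi44* and *Ifi35* each gave 0.15. *Samhd1*, which breaks down DNA building blocks, had 3504 and 3761 (log2 ratio 0.10, error 0.20), and its second probe gave 0.10 as well. The dimmest probe of *Samhd1* was well above background only in ALDH-positive cells (7.87 and 35.5). Its bound, taken as for *Oas3*, was 2.70-fold and likewise holds for background-subtracted signals only. *Bst2*, encoding tetherin, which holds virus particles at the membrane, had 3561 and 3789 (0.090), and the exonuclease *Isg20* had 6866 and 7185 (0.066). Apart from the dimmest probe of *Samhd1*, these 5 genes lay within their errors.

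**Figure D4:**
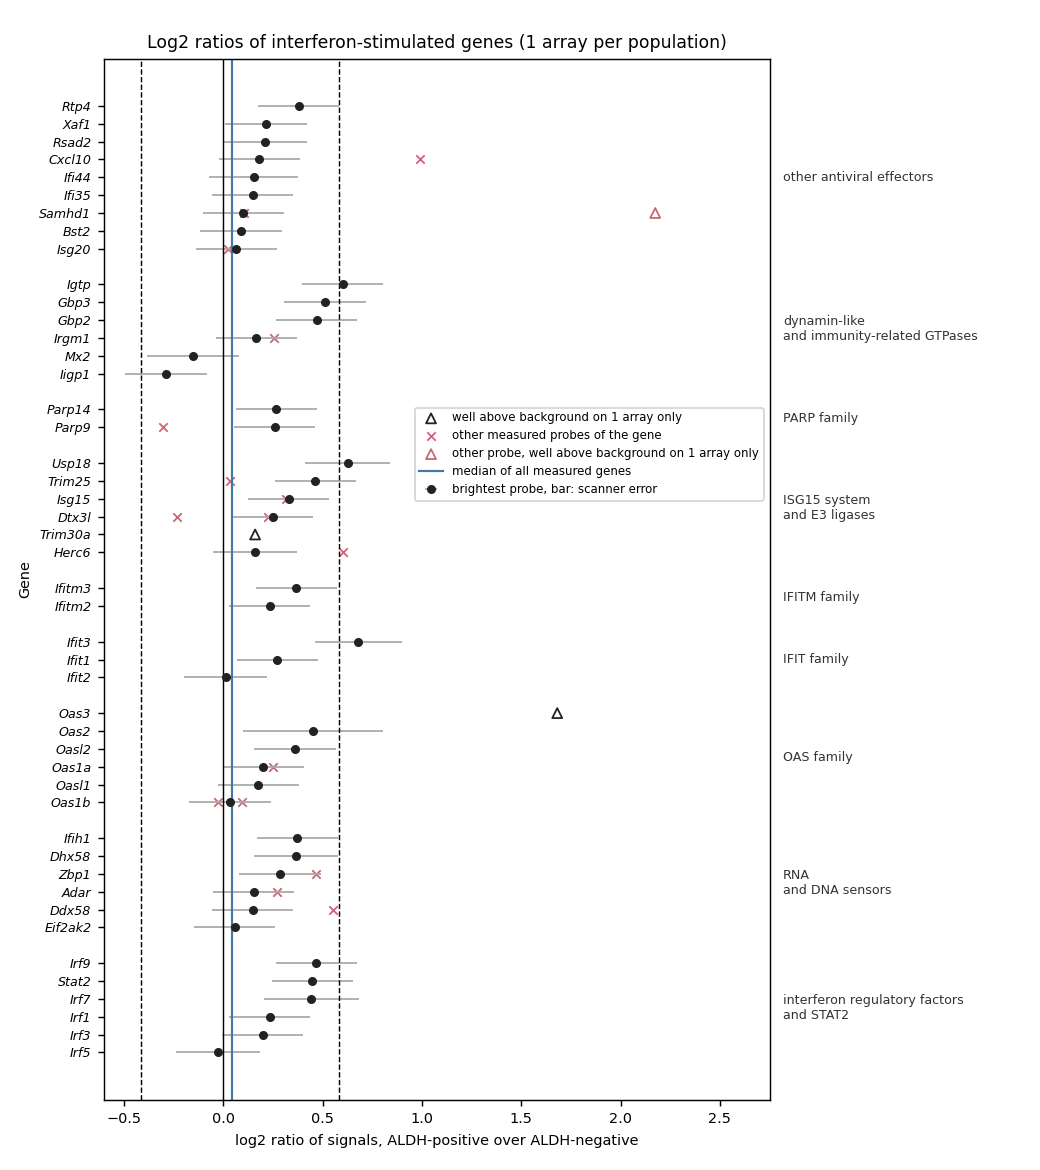
Log2 ratio of signals, ALDH-positive over ALDH-negative (x axis), of the 46 measured interferon-stimulated genes by role (y axis), as the brightest probe with the scanner software's error (black points and bars), other probes (red crosses), and probes well above background on 1 array only (triangles, whose position is not a measured ratio). Dashed lines mark ratios of 0.75 and 1.5 and the blue line the median of all measured genes, 0.042, and 17 genes lie at 0.32 or more.

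Of the 46 genes, 14 had more than 1 measured probe. In 8 of these, *Trim25*, *Herc6*, *Ddx58*, *Cxcl10*, *Samhd1*, *Parp9*, *Dtx3l* and *Oas1b*, the probes differed in sign or by more than 0.3 on the log2 scale. In 11 of the 14 all probes lay above 0. Over all measured probes of the listed genes, 57 of 63 lay above 0, beside 52.7% of all measured probes.

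The genes with and without an ISRE core were also set side by side. The 19 measured genes with a core all lay above 0 with a median log2 ratio of 0.27, and of the 17 without one 16 lay above 0 with a median of 0.18. Over all measured genes the 363 with a core had a median of 0.058 and the 9542 without one 0.048. Genes such as *Irf9* (0.47) and *Irf7* (0.44) had no core in the window used, and *Bst2* (0.090) and *Eif2ak2* (0.058) had one. The ratios of genes with and without a core thus overlapped. For the GAS element the order was reversed, with a median of 0.15 in 11 measured genes with it and 0.25 in 25 without. The 10 measured genes that had no entry among the promoters had a median of 0.28.

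The genes that act before and beside the listed ones were read from 7 further lists. These lists overlap in part, and they were chosen with earlier results of these arrays known. Of 9 measured interferon ligand genes 1 lay above 0, with a median log2 ratio of -0.30. *Ifna7*, 1 of many type I interferon genes, was called lower, with 94.6 and 16.5 (log2 ratio -2.52, error 0.33). *Ifnab* gave -0.52, *Ifna1* and *Ifna11* -0.40 each and the type III ligand *Il28b* -0.30, none of them called. All of these ligand signals were dim, and the type I genes are near copies of each other, so that a probe cannot be tied to 1 of them with certainty. The spots of *Ifna7*, *Ifnab* and *Il28b* also lay towards the edge of the array. How single values of the 7 lists depend on background correction or array area was not tested. *Ifnb1* and the type II ligand *Ifng* were not well above background on either array.

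The 6 measured receptor genes had a median log2 ratio of 0.035. *Il28ra*, the specific chain of the type III receptor, had 293 and 434 (log2 ratio 0.57, error 0.20) and a ratio under the limit. *Il10rb*, its second chain, had 203 and 248 (0.29). The chains of the type I receptor, *Ifnar1* (0.056) and *Ifnar2* (0.0085), and of the type II receptor, *Ifngr1* (-0.047) and *Ifngr2* (0.014), lay within their errors. Of the 6, *Il28ra* and *Il10rb* thus lay farthest from 0, and none was called. The spot of *Il28ra* lay at the edge of the array.

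The transducers had a median log2 ratio of 0.22, with 8 of 9 genes above 0 and none called. The kinase genes *Tyk2* and *Jak1* gave 0.29 and 0.27 (errors 0.21 and 0.20), and the corepressor gene *Irf2bp2* 0.32. Of 11 negative regulators all lay above 0 with a median of 0.13. They were led by the receptor inhibitors *Cish*, with 0.35, and *Socs3*, with 0.25, the ubiquitin ligase gene *Rnf125*, with 0.25, and the phosphatase gene *Ptpn6*, with 0.22. None of the 11 was called.

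Of 18 sensors and adaptors upstream of interferon 15 lay above 0, with a median of 0.10. *Aim2*, a sensor of DNA, passed the limits for higher but was well above background only in ALDH-positive cells (2.92 and 18.5). Its bound, taken as for *Oas3*, was 1.41-fold and likewise holds for background-subtracted signals only. The *Aim2* spot lay at the edge of the array. *Tlr3* and *Ikbke*, a receptor of double-stranded RNA and a kinase that activates IRF3, gave 0.50 and 0.43, and *Tlr9*, a receptor of DNA, gave -0.37. *Trex1*, a nuclease that removes DNA from the cytosol, gave 0.26. Only *Aim2* of these was called.

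The 55 further measured interferon-stimulated genes had a median log2 ratio of 0.21, close to that of the 46, but reached farther below 0. Of the 55, 44 (80%) lay above 0, beside 93.5% of the 46 and 59.5% of all measured genes. The lower quartile was 0.066, beside 0.15 in the 46. A log2 ratio of 0.32 or more was reached by 21 of the 55, beside 12.8% of all measured genes. In this list 2 genes were called higher and 2 lower, beside 1.37% and 2.31% of all measured genes. *Tgtp2*, a T cell GTPase related to *Igtp*, was called higher with 493 and 753 (0.61), as was the schlafen gene *Slfn2* with 154 and 249 (0.70). *Slfn9*, another schlafen gene, was called lower with 1092 and 566 (-0.95), as was *Gbp6* with 146 and 84.5 (-0.79). A second probe of *Slfn9* also gave a lower signal (-0.58), whereas a dim second probe of *Gbp6* gave 0.71 (error 0.39). *Gbp4* (0.94), *Ly6a* (0.65), *Gbp7* (0.62) and *Cd274* (0.52), the last encoding the checkpoint ligand PD-L1, were not called. Members of the same GTPase and schlafen families thus lay on both sides of 0. *Cxcl11*, another chemokine gene, had 217417 and 187664 on its brighter probe (log2 ratio -0.21, error 0.20) and was not called. Its dimmer probe passed the limits for lower with 3957 and 2775 (log2 ratio -0.51, error 0.20).

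The 18 measured antigen presentation genes had a median of 0.10, with 16 above 0. *H2-Q4*, a class I gene, was called lower with 29659 and 17014 (log2 ratio -0.80, error 0.20). *Psmb9*, an immunoproteasome subunit, gave 0.28, the class I gene *H2-K1* 0.27, the class II gene *H2-Ab1* 0.26 and the class I regulator *Nlrc5* 0.23, none of them called. A second bright probe of *H2-K1* had 15621 and 16358 (0.067, error 0.20), and a second probe of *H2-Ab1* gave 0.45 (error 0.21). Class I genes are close in sequence, and cross-hybridization was not tested.

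**Figure D5:**
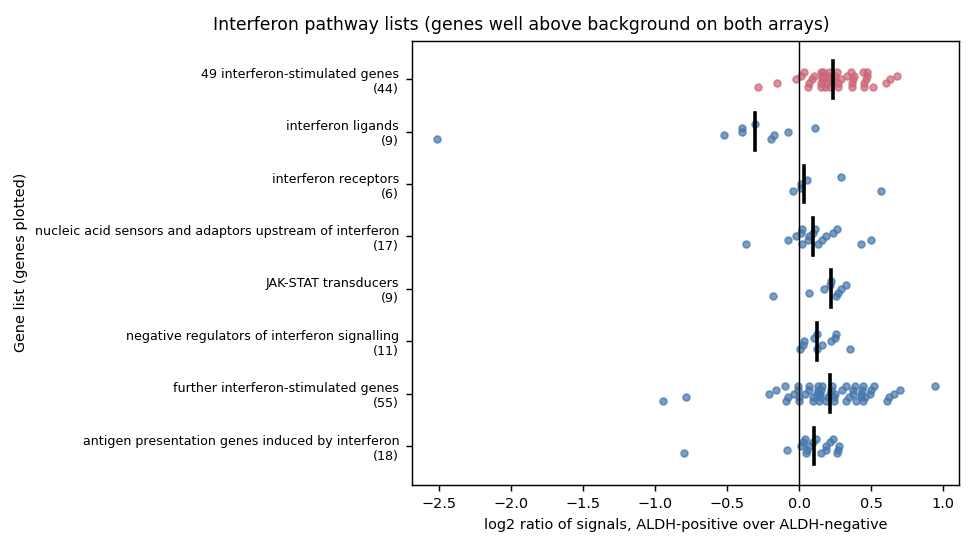
Log2 ratio of signals, ALDH-positive over ALDH-negative (x axis), of single genes (points) in each interferon pathway list (y axis, number of genes in brackets), for genes well above background on both arrays, with the list's median as a vertical line. The medians run from -0.30 for the ligands to 0.23 for the 44 interferon-stimulated genes in red.

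Markers of cell types were read beside these values. All 10 epithelial markers were measured and lay above 0 (median 0.31), and their summed signal was 334495 and 382133, with *Krt14* (695 and 1366), *Cldn7* (4183 and 7525) and *Esrp1* (635 and 979) called higher. Of 11 leukocyte markers 6 were measured, 2 of these lay above 0, and the signals of the 11 summed to 89407 (ALDH-negative) and 71159 (ALDH-positive). Among them *Itgam*, a myeloid integrin, was called lower with 7301 and 3795 (log2 ratio -0.94, error 0.20), while its dimmer probes gave 0.38 and -0.67. Most of that sum came from the 1 probe of *Siglech* (78944 and 64298), while *Ptprc*, the pan-leukocyte marker, and *Lyz2*, *Ncr1* and *Emr1* were not well above background on either array. The 2 leukocyte markers above 0 were *Cd68*, with 762 and 1032 (log2 ratio 0.44, error 0.20), and *Cd14*, with 480 and 580 (0.27, error 0.20). The other 4 measured ones lay below 0. Of 9 fibroblast markers 5 were measured, with summed signals of 305 and 380 over all 9, and *Postn* was called higher (74.0 and 144). The other 4 measured fibroblast markers included 3 below 0, among them *Col1a1* (28.2 and 17.3, log2 ratio -0.70), and the median of the 5 was -0.020. The sorted cells came from a single cultured carcinoma line, so these signals are no measure of leukocytes or fibroblasts. In bulk RNA, more cells with a transcript and more of it per cell cannot be told apart. The part of these markers in the ratios of interferon-stimulated genes was not tested. Of 6 aldehyde dehydrogenase genes linked to the ALDEFLUOR assay 3 were measured, and none was called on its brightest probe (median 0.025). A second probe of *Aldh3a1* passed the limits for higher with 811 and 1247 (log2 ratio 0.62, error 0.20), where the brighter one had 2588 and 2633 (0.025).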

How the data were processed

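Single-colour Agilent arrays were read, 1 of ALDH-negative and 1 of ALDH-positive 4T1 cells. The authors extracted spot intensities with Agilent Feature Extraction (9.5.1.1 per the labels and 10.7.1.1 per the file headers), and the deposited scanner files hold the mean, background and background-subtracted processed signal of 62976 spots, with its error, in intensity units. The authors also deposited a table of normalized intensity values, used as an alternative. The RNA kit differs between the labels and the paper.

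Control spots (leaving 59305) and outlier spots (135 and 116) were left out. Repeated spots were averaged on the log2 scale, signals under 1 were set to 1, and both arrays were quantile-normalized. Well above background were 48.5% and 49.4% of 55681 probes. No spot was saturated, and the median background was 56 and 57. The 75th percentile of the signal was 234 and 322. The Z-score was not defined in the sources used here, so a window of 250 probes on either side was taken.

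Of the 72 probes of the 49 genes, 61 had an accession in the RefSeq gene table and none had another symbol there. Probe positions are on NCBI37 and promoters on GRCm38.p6, and the builds were not mixed. The genes and all lists were chosen with earlier results of these data known. Every listed gene is accounted for. Named with signals and, where measured on both arrays, errors are called genes, those measured on 1 array, those whose probes differ, and the 12 largest and 6 smallest log2 ratios, by their brightest probe. Of other lists, the called genes are given with signals, and up to 4 farthest from 0 by their ratios. The other genes are given more briefly. Some genes of the other lists are not reported here by name.

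No test was made, since each population had 1 array. Alternatives were normalization, background correction (normexp with offset 50, limma 3.58.1 in R 4.3.3), the deposited table, filters on dim probes, the probe that stands for a gene, the array area, the Z-score window and the ratio limit. The subtraction of neighbouring spots and the ranges of signal were chosen after seeing the data. Other steps used Python 3.11.15, numpy 2.4.6 and pandas 2.3.3, and were tested on simulated data.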

Additional observations from a re-analysis of the deposited data

How the results depend on the processing

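No paired analysis was possible because each population had a single array. The 1 interferon-stimulated gene called higher, *Igtp*, was not called with normexp background correction or without background correction, where 0 genes were called higher, since its log2 ratio was then 0.52 and 0.51. With the Z-score taken over all probes the 1 gene called higher was *Oas3* in place of *Igtp*. No gene was called lower under any alternative. The number of genes with a log2 ratio of 0.32 or more was 11 without background correction and 12 with normexp, where 4.72% and 5.05% of all measured genes reached it.

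The median log2 ratio of the genes lay between 0.20 without background correction and 0.28 with the 75th percentile shift, under which all measured genes had a median of 0.084 and 41 of 46 genes lay above 0. Over the alternatives, 40 genes lay above 0 in every one and *Irf5*, *Mx2* and *Iigp1* below 0 in every one, while *Ifit2*, *Parp9* and *Trim30a* changed sign. Of 406 recomputed values of single genes, 354 moved by less than 0.077 on the log2 scale, the combined SD of repeated spots. Many of these could not move, since the filters on dim probes left the brightest probe of a gene in place. Of the 46 genes, 17 moved by at least that much with the 75th percentile shift, 13 without background correction and 12 with normexp. The dim *Ifit3*, *Irf7*, *Dhx58*, *Oas2* and *Oas3* had lower log2 ratios with both other background corrections, as given with their values, and are limited by their distance from background.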
